A study of Mus musculus with 19 samples.

Results

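The genes described here are nuclear genes for subunits of the oxidative phosphorylation system, measured by RNA sequencing in the left prelimbic cortex of mice. They were taken by symbol from the table of gene counts: names beginning with Nduf followed by a, b, c, s or v and a digit, Sdha to Sdhd, names beginning with Uqcr, Cox4 to Cox8 names, and names beginning with Atp5. A member also had to average at least 1 CPM (a gene's counts scaled to a library of fixed total) over the 19 libraries. Of the 20938 genes in the table, 85 matched by name and 79 met the minimum. They comprised 36 genes of complex I, 4 of complex II, 8 of complex III, 12 of complex IV and 17 of complex V, plus 2 that belong to no single complex here, the supercomplex factor Cox7a2l and the paralogue Ndufa4l2. The 6 names that fell short were the tissue-restricted isoforms Cox7a1, Cox6b2, Cox4i2, Cox7b2, Cox8b and Cox8c, with mean CPM of 0.988, 0.666, 0.637, 0.199, 0.168 and 0. Cox7a1 at 0.988 lay just outside the limit, and Ndufa4l2 at 1.57 lay just inside it. All 79 members passed the count filter of the test, so none was lost there. Respiratory chain genes with other names, such as Cyc1 and Ndufab1, were not members, so the sets by complex are not complete.

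The study crossed a drug with a stimulation. Mice labelled SCZ received MK-801, an NMDA receptor blocker used to model schizophrenia, at 0.2 mg/kg by daily intraperitoneal injection for 2 weeks, and mice labelled Control received saline. In the groups labelled c-MSST, Ferumoxytol, an iron oxide nanoparticle, was injected stereotactically into the left prelimbic cortex and a pulsed magnetic field was applied. The 4 groups were Control (n = 6), Control+c-MSST (n = 5), SCZ (n = 4) and SCZ+c-MSST (n = 4), and the tissue was taken on day 3 after surgery. Surgery in the 2 groups that received no c-MSST is not mentioned in the labels, which also give no strain, sex, age or sequencing batch. Total RNA was sequenced as bulk tissue, in which fewer cells of a type and less RNA per cell cannot be told apart.

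Oxidative phosphorylation is the mitochondrial process that makes most of a neuron's ATP. Complexes I (NADH dehydrogenase) and II (succinate dehydrogenase) pass electrons to ubiquinone, complex III passes them to cytochrome c, and complex IV (cytochrome c oxidase) passes them to oxygen. Complexes I, III and IV pump protons across the inner membrane, and complex V (ATP synthase) lets them back through its c ring to drive ATP synthesis. Most subunits are encoded in the nucleus and the rest in mitochondrial DNA; complex II has nuclear subunits only. The cortex, with its constant synaptic activity, depends heavily on this system. The count table holds 0 mitochondrially encoded genes, so the description covers the nuclear subunits only.

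The libraries held 50140626 to 82416746 counts, of which the 79 members took 0.553% to 0.695%. A cortical marker was present in every library: Slc17a7, the vesicular glutamate transporter of cortical excitatory neurons, ranged from 859 to 1460 CPM. Markers of striatal neurons were present as well and varied widely, with Drd2 from 1.3 to 101 CPM. Control replicate 2 stood apart by high choroid plexus markers and Control+c-MSST replicate 6 by low myelin markers, and Control replicate 3 had the lowest striatal marker score. Medians are also given without these 3 libraries, a set chosen after the data were seen.

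The promoters of 6 genes are printed, chosen among the members with small p-values, or groups that did not overlap, in the comparisons below: Ndufa1, Cox7a2l, Cox7c, Ndufa9, Ndufs3 and Ndufa5. Each runs 5′ to 3′ from 250 bases before to 50 after the RefSeq start (GRCm38.p6), all on the minus strand: Ndufa1 at chrX:37191189-37191488, Cox7a2l at chr17:83514284-83514583, Cox7c at chr13:86046746-86047045, Ndufa9 at chr6:126849095-126849394, Ndufs3 at chr2:90904672-90904971 and Ndufa5 at chr6:24527641-24527940. Capitals mark matches, on either strand, to the NRF1 motif (a GC-rich consensus with 1 free base), CCGGAAG (the ETS family, which includes GABPA) or AAGATGGC (YY1), the factors with a textbook link to respiratory chain promoters.
Ndufa1: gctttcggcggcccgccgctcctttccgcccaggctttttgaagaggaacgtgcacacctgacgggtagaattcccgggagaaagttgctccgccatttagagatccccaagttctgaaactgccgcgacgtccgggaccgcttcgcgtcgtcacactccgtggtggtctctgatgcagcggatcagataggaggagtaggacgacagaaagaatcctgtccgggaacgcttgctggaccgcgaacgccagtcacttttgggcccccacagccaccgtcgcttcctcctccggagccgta
Cox7a2l: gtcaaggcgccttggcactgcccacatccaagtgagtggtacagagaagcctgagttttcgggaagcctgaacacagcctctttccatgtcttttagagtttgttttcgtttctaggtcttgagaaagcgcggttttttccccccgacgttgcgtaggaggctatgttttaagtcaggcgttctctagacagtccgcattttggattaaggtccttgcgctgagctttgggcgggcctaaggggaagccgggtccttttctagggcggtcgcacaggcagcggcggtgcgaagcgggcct
Cox7c: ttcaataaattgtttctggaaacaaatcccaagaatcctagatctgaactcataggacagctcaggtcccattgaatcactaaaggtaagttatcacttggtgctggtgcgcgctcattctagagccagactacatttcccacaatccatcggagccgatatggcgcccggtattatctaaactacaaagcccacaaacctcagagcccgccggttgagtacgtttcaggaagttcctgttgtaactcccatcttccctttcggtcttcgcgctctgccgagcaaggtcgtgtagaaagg
Ndufa9: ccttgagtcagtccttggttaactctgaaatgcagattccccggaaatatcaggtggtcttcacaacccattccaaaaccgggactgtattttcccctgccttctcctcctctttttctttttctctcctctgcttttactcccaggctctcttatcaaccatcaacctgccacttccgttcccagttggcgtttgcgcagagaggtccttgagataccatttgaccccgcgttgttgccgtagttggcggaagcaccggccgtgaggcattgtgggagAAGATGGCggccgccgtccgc
Ndufs3: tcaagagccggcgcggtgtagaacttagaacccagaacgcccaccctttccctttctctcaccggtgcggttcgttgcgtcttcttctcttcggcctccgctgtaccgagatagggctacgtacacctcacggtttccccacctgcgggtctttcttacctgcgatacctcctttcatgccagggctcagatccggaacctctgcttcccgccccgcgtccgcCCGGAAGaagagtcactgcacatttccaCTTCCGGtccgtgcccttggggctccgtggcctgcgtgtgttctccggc
Ndufa5: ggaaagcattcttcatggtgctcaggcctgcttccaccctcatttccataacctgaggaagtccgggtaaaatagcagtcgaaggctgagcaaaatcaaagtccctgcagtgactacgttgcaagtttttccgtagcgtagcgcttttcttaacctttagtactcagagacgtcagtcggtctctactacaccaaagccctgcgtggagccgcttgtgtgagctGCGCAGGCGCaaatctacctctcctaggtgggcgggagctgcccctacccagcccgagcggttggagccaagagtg
The table of promoters held 64 of the 79 members. The NRF1 motif was in 17 of these (26.6%) against 9.5% of tested genes and 5.19% of all genes in the table. The ETS motif was in 17 (26.6%) against 16.6% and 9.93%, and the YY1 motif in 10 (15.6%) against 4.37% and 3.19%. At least 1 of the 3 was in 38 members (59.4%) and in 27.0% of tested genes. By complex, the NRF1 motif was found in 7 of 31 promoters of complex I, 2 of 3 of complex II, 1 of 5 of complex III, 1 of 9 of complex IV and 6 of 15 of complex V. The general GC box GGGCGG was in 26 members (40.6%) against 62.8% of tested genes, and CCAAT in 27 (42.2%) against 42.3%. The motifs do not contain one another, and a match is a description of letters, not a site of binding. Ndufa1, Cox7a2l and Cox7c held none of the first 3 motifs in this window, Ndufa9 held a YY1 match, Ndufs3 held 2 ETS matches and Ndufa5 an NRF1 match. Other members that fit the choice are not printed. Among them, Ndufb4 and Ndufa11 had smaller p-values than Cox7c and Ndufa9 in SCZ against Control, and held 3 and 1 NRF1 matches.

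Levels between genes are given as CPM per kb, that is, CPM scaled by edgeR's TMM factors and divided by the length of the gene's longest APPRIS principal transcript in GENCODE M21 (GRCm38). Values are means over the 19 libraries with the SD. The subunits of 1 complex were not at 1 level. Complex IV had the highest median (151 CPM per kb), followed by complex III (87.7), complex V (67.9), complex II (48.7) and complex I (42.3). Cox4i1, the ubiquitous form of the regulatory subunit IV, stood highest of all members at 400 ± 20.6, and Atp5b, the catalytic beta subunit of ATP synthase, followed at 382 ± 20.2. In complex I the highest was Ndufb9, an accessory membrane arm subunit, at 91.8 ± 6.65, and in complex III it was Uqcr10, a small subunit, at 109. The 7 conserved core subunits of complex I had a median of 42.1, with Ndufs7 lowest at 36.8, and the 28 accessory subunits had a median of 42.6. The transcript chosen decides part of this order. With the shortest principal transcript, an alternative chosen after the data were seen, 8 members moved by more than 1.5 times, among them Ndufb2 (from 3.57 to 34.3), Atp5g1 (from 9.09 to 71.9), Atp5md (from 27.2 to 211) and Uqcrq (from 30.6 to 115). Complex medians then became 42.8, 48.7, 93.2, 171 and 72.9 for I to V, in the same order.

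**Figure D1:**
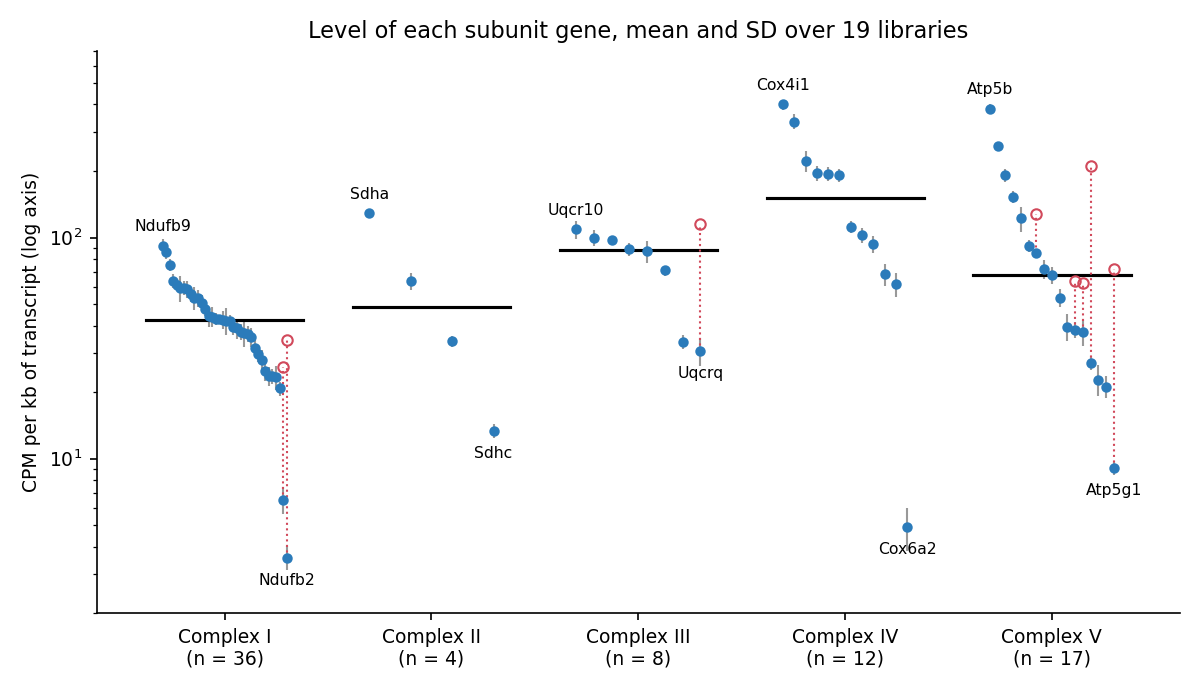
Mean CPM per kb (log axis) of each subunit gene of complexes I to V, ordered within its complex; grey bars are the SD over 19 libraries and black lines the complex medians. Open circles joined by dotted lines show the 8 genes whose level moved over 1.5 times with the shortest principal transcript; Cox4i1 (400) and Atp5b (382) stand highest.

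Isoform families were dominated by their ubiquitous members. Cox6a1 stood at 194 ± 14.6 CPM per kb and its heart and muscle isoform Cox6a2 at 4.9 ± 1.09. Cox4i1 (400 ± 20.6) exceeded Cox4i2 (0.869), Cox6b1 (191) exceeded Cox6b2 (1.13), and Cox8a (335 ± 26.7) exceeded Cox8b (0.463). Cox7a2 stood at 103 ± 8.04 and the muscle isoform Cox7a1 at 2.51. These gaps are far wider than the spread over libraries. Ndufa4, a complex IV subunit despite its name, stood at 112 ± 7.45 and its hypoxia-inducible paralogue Ndufa4l2 at 1.68 ± 0.425. Of the 3 genes for the c ring, the rotor of ATP synthase, Atp5g3 stood at 72 ± 7.34, Atp5g2 at 38.3 ± 3.08 and Atp5g1 at 9.09 ± 0.677, an order that changes with the shorter transcript (Atp5g1 at 71.9, Atp5g2 at 63.5). In complex II, Sdha, which carries the flavin, stood at 129 ± 5.16, the iron-sulfur subunit Sdhb at 63.4, and the membrane anchors Sdhd and Sdhc at 34 and 13.4. Ndufb4c is annotated as a processed pseudogene close in sequence to Ndufb4, so reads may be split between them and both values are uncertain. Exons of 30 members share bases with another annotated gene, in 27 cases on the opposite strand. No source used here states if counts were made by strand, so such members can hold reads of the other gene.

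In SCZ against Control, subunit genes of all 5 complexes tended to be slightly higher in the MK-801 animals, and no gene passed the test. Of the 79 members, 74 (93.7%) had a log2 fold change above 0, where 50.1% of the 16417 tested genes did. The median was 0.11 on the log2 scale, against 0 for all tested genes, with members from -0.13 to 0.34. Short genes moved the same way: 47 of the 79 members have a longest principal transcript under 1000 bases, and the 1052 tested genes that short had a median of 0.064. Across 16358 genes, which are not independent replicates, Spearman's rho of log2 fold change with length was -0.14, and the part of length in the members' shift was not tested. With edgeR's quasi-likelihood test and Benjamini-Hochberg adjustment, 0 members were called at an adjusted p under 0.05, and 0% of tested genes were. At an unadjusted p under 0.05, 17 members (21.5%) were higher, where 6.09% of tested genes were, and 0 were lower, where 7.43% were. DESeq2 called 1 member, Ndufa1. Calls among all tested genes ran from 0 to 243 over the alternatives, and the share for DESeq2 alone is not given here. The count of 17 became 11 without Control replicate 1, 10 without SCZ replicate 2 and 29 without Control replicate 5. Groups did not overlap for 4 members (5.06%), higher in SCZ, against 1.6% of tested genes, and for 0 members in the lower direction, against 1.25%.

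The shift was of like size in every complex. The median log2 fold change was 0.097 in complex I (34 of 36 above 0), 0.12 in complex II (4 of 4), 0.11 in complex III (8 of 8), 0.11 in complex IV (11 of 12) and 0.11 in complex V (16 of 17). Within complex I it was 0.075 for the core subunits and 0.097 for the accessory ones, and within complex V it was 0.094 for the F1 head, 0.13 for the c ring, 0.054 for the peripheral stalk and 0.15 for the other membrane subunits. The 5 members below 0 were Cox6a2, Ndufs8, Atp5j, Ndufa12 and Ndufa4l2. As a mean over members of the centred log2 CPM of each library, Control ranged from -0.17 to 0.067, Control+c-MSST from -0.15 to 0.009, SCZ from 0.009 to 0.13 and SCZ+c-MSST from -0.045 to 0.068. The SCZ and Control ranges overlapped for all members together. For complex II alone they did not, with SCZ at 0.056 to 0.10 and Control at -0.19 to 0.046. Complex III came close, with the lowest SCZ value at 0.026 and the highest Control value at 0.028. Control replicate 1 had the lowest value of the 19 libraries for 39 of the 79 members, and SCZ replicate 3 the highest for 22.

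**Figure D2:**
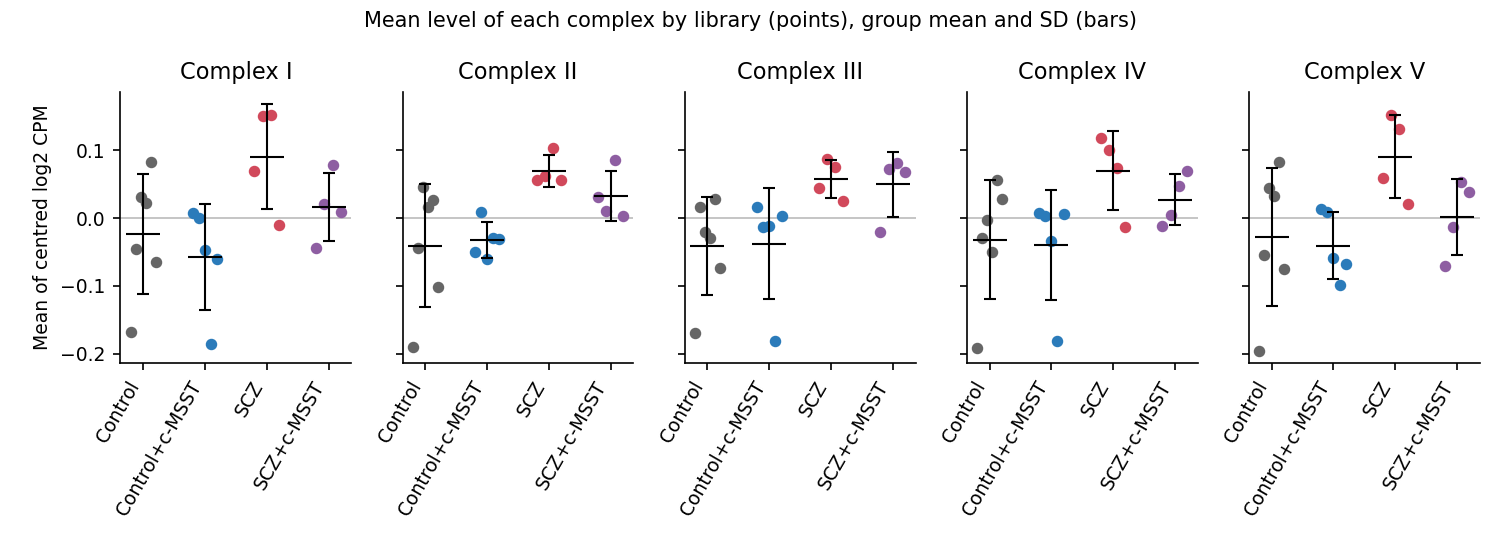
Mean of the centred log2 CPM (y axis) over the members of each complex, one panel a complex, one point a library, with bars for group mean and SD. The SCZ libraries sit above the Control libraries without overlap for complex II only. For complex III the lowest SCZ point (0.026) lies just under the highest Control point (0.028).

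**Figure D3:**
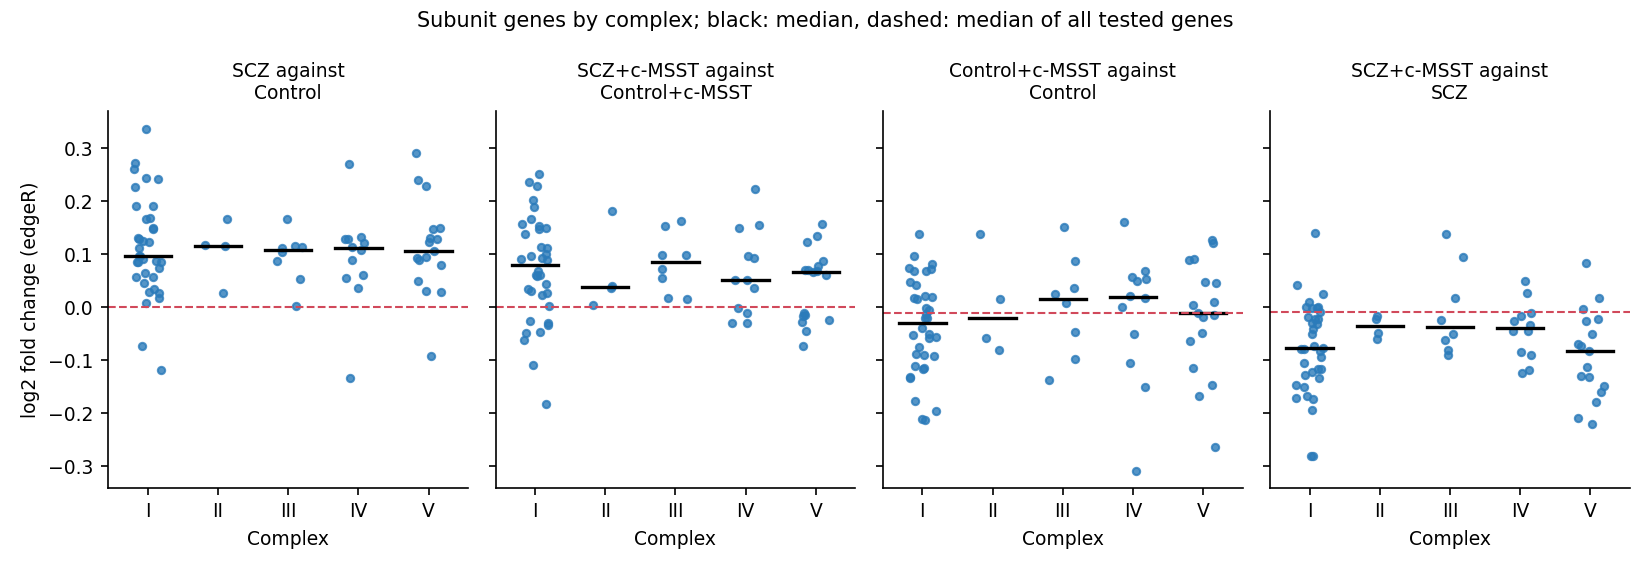
Log2 fold changes (y axis) of single subunit genes by complex in the 4 comparisons of groups; black lines are complex medians and the dashed line is the median of all tested genes. In SCZ against Control 74 of 79 members lie above 0, and in SCZ+c-MSST against SCZ 13 of 79 do.

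Other gene groups moved with this one. The cytosolic ribosomal protein genes, short and abundant transcripts like many subunit genes, were above 0 in 74 of 79 cases (median 0.13), and 29 had an unadjusted p under 0.05. Mitochondrial ribosomal protein genes were above 0 in 58 of 78. With a ribosomal protein score of each library as a covariate, chosen after the data were seen, the members' median was 0.045, with 64 above 0 and 6 at an unadjusted p under 0.05. All 12 striatal neuron markers were above 0 (median 1.14): their summed CPM ran from 343 to 2650 in Control (median 991), from 415 to 2170 in Control+c-MSST (median 743), from 2190 to 2910 in SCZ (median 2410) and from 1450 to 3340 in SCZ+c-MSST (median 2100). Of these markers, Isl1 was at 0 in at least 1 library. All 8 excitatory cortical markers were below 0 (median -0.29), summing to 5520 to 7740 CPM in Control and 4890 to 6040 in SCZ. With the striatal score as a covariate, also chosen afterwards, the members' median was 0.073 and 66 were above 0. Endothelial markers were above 0 in 8 of 8 (median 0.16), and their part in the result was not tested. Without Control replicates 2 and 3 and Control+c-MSST replicate 6 the members' median was 0.12 with 74 above 0.

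Ndufa1, a small membrane-bound accessory subunit needed to assemble complex I, had the smallest p of the members. The gene lies at X:37187588-37191163 on the minus strand (GRCm38) and has 3 exons. It stood at 21 to 26.1 CPM in Control (median 23.6). In SCZ the 4 libraries held 29.1, 31.1, 31.2 and 28.4 CPM. Every SCZ library was above every Control library. The log2 fold change was 0.34 ± 0.076 (SE), with an adjusted p of 0.148 by edgeR and 0.015 by DESeq2. Cox7a2l, which links complexes III and IV into supercomplexes, lies at 17:83501918-83517330 and stood at 77.7 to 85.6 CPM in Control (median 83.2). In SCZ it held 86.7, 93.7, 94.5 and 87.9 CPM, again with no overlap, and its log2 fold change was 0.14 ± 0.04 with an edgeR adjusted p of 0.17. Ndufs3, a core subunit of the matrix arm near the quinone site, lies at 2:90894634-90904827. It stood at 34.3 to 44.2 CPM in Control (median 38.2) and at 44.4, 45.9, 48.9 and 41.4 in SCZ, where the last library fell within the Control range. Its log2 fold change was 0.23 ± 0.066 (edgeR adjusted p = 0.17), and 88 of its exon bases are shared with Kbtbd4.

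Cox7c and Ndufa9 were picked for not overlapping, after their values were seen. Cox7c, a small structural subunit of complex IV at 13:86044816-86046904, stood at 81.4 to 123 CPM in Control (median 118) and at 137, 135, 133 and 133 in SCZ. Its log2 fold change was 0.27 ± 0.083 (edgeR adjusted p = 0.193). Ndufa9, an accessory subunit where the matrix and membrane arms of complex I meet, lies at 6:126821721-126849136 and stood at 49.8 to 64 CPM in Control (median 61.5) and at 67.4, 64.7, 67.8 and 64.4 in SCZ. Its change was 0.15 ± 0.056 (edgeR adjusted p = 0.258). For both genes all SCZ libraries were above all Control libraries, and Control replicate 1 was low.

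**Figure D4:**
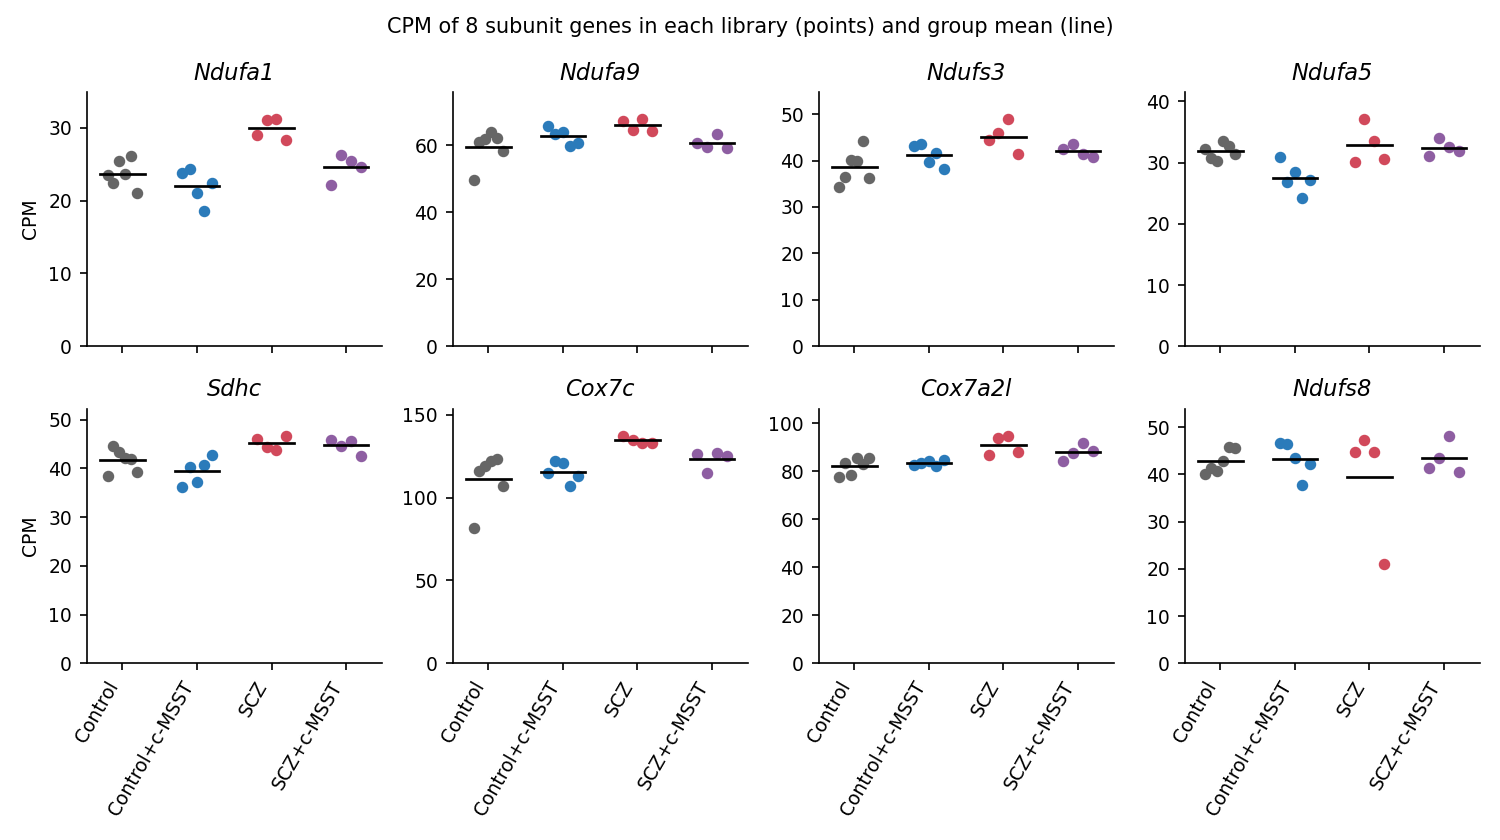
CPM (y axis, from 0) of 8 subunit genes in each library, with a line for the group mean. All SCZ points lie above all Control points for Ndufa1, Ndufa9, Cox7c and Cox7a2l, and 1 SCZ library lies far below the rest for Ndufs8.

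Among the other core subunits of complex I, Ndufs7 had a log2 fold change of 0.17 ± 0.077 (edgeR adjusted p = 0.357), and the iron-sulfur subunit Ndufs1 stood at 0.075 ± 0.056. The NADH-binding pair Ndufv1 and Ndufv2 stood at 0.029 ± 0.09 and 0.15 ± 0.085. In complex II the changes were 0.028 ± 0.04 for Sdha, 0.17 ± 0.081 for Sdhb, 0.12 ± 0.053 for Sdhc and 0.12 ± 0.052 for Sdhd. The Rieske protein Uqcrfs1 of complex III stood at 0.17 ± 0.064 (edgeR adjusted p = 0.267). The core protein Uqcrc1 stood at 0.003 ± 0.042. In complex IV, Cox4i1 stood at 0.11 ± 0.046 (edgeR adjusted p = 0.291) and the muscle isoform Cox6a2 at -0.13 ± 0.19. In complex V, the epsilon subunit Atp5e of the central stalk had the highest value, 0.29 ± 0.11, with an edgeR adjusted p of 0.266. None of these passed the test.

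In the animals that received c-MSST, SCZ+c-MSST against Control+c-MSST, the members again leaned upward but less evenly. There were 59 of 79 (74.7%) above 0, where 49.9% of tested genes were, with a median of 0.067. On the FPKM scale the members' median fell below 0, at -0.029 (plus 1) and -0.03 (plus 0.1). All genes stood lower still on that scale, at -0.068 and -0.092. The replicate block took away most of the members' median, with the value given in the closing section. Tested genes under 1000 bases had a median of 0.043. Of the members and of tested genes, 0 and 0% were called by edgeR. An unadjusted p under 0.05 was reached by 11 members upward (13.9%, against 5.46%) and 1 downward (against 5.51%). The total of 12 became 4 without Control+c-MSST replicate 6, which had the lowest value of all libraries for 24 members, and 5 without SCZ+c-MSST replicate 4. Without replicate 6 the median was 0.044. Groups did not overlap for 5 members upward (6.33%, against 2.3%) and for 2 downward (2.53%, against 2.36%). Complexes II and III were above 0 throughout (4 of 4 and 8 of 8), complex I in 28 of 36, complex IV in 8 of 12 and complex V in 10 of 17, with the 3 c ring genes all below 0. Striatal markers were above 0 in 12 of 12 (median 1.11), myelin markers in 10 of 10, haemoglobin genes in 5 of 5 (median 1.71) and cytosolic ribosomal protein genes in 67 of 79. Excitatory cortical markers were below 0 in 8 of 8 (median -0.14). Haemoglobin genes summed to 129 to 216 CPM in Control+c-MSST and 189 to 1290 in SCZ+c-MSST. Their part in the result was not tested for single genes, and with the striatal score as a covariate the median was 0.042.

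Ndufa5, an accessory subunit of the matrix arm at 6:24518666-24528013, stood in Control+c-MSST at 30.9, 26.8, 28.5, 24.2 and 27.2 CPM. In SCZ+c-MSST it held 31.1, 34.1, 32.6 and 31.9, above every library of the other group. The log2 fold change was 0.24 ± 0.07 (edgeR adjusted p = 0.305). Sdhc, a membrane anchor of succinate dehydrogenase at 1:171127165-171150603, stood at 36.2, 40.2, 37.3, 40.7 and 42.7 CPM against 45.9, 44.6, 45.7 and 42.6 CPM. These overlap in 1 library, and the change was 0.18 ± 0.055 (edgeR adjusted p = 0.305). Ndufa13, an accessory subunit also known as GRIM-19, held 57.6, 50.7, 50.6, 38.8 and 45.8 CPM against 52.9, 59.1, 60.4 and 59.7 CPM, with overlap, at 0.25 ± 0.082 (edgeR adjusted p = 0.317). The accessory subunit Ndufb7 did not overlap, at 17.2 to 19.3 CPM against 20.4 to 22.7. Ndufa7, an accessory subunit of the matrix arm, was lower without overlap, at 29.2 to 31.3 CPM against 25.9 to 29.

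In Control+c-MSST against Control the members showed no common direction when all libraries were used. The median was -0.01 and 37 of 79 were above 0 (46.8%, against 47.1% of tested genes). Leaving out single libraries moved the number above 0 between 21 and 43. The median was -0.05 without Control replicate 1 and 0.014 without Control replicate 5, so a downward lean depends on the libraries used. Of tested genes 54 were called by edgeR (0.329%), and 0 members were. An unadjusted p under 0.05 was reached by 1 member upward (1.27%, against 7.86%), Cox8a, and 7 downward (8.86%, against 8.7%), shares near or below the background. The total of 8 became 3 without Control+c-MSST replicate 6, 5 without Control replicate 3 and 13 without Control+c-MSST replicate 1. No member had groups that did not overlap, where 0.847% of tested genes did upward and 0.755% downward.

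The 3 smallest p-values belonged to Ndufa12, Ndufa5 and Cox6c, all lower with c-MSST. Ndufa12, an accessory subunit of the matrix arm, stood at 54.5 to 66.2 CPM in Control (median 59.2) and at 57.1, 53.9, 52.4, 44.3 and 49.3 in Control+c-MSST. Ndufa5 stood at 30.2 to 33.6 CPM in Control (median 31.9), and Cox6c, a small complex IV subunit, at 141 to 156 (median 146) against 149, 138, 130, 114 and 133. All 3 overlapped, and replicate 6, the fourth value in each c-MSST list, was lowest. The log2 fold changes were -0.21 ± 0.064, -0.21 ± 0.064 and -0.15 ± 0.056, with edgeR adjusted p-values of 0.116, 0.117 and 0.187.

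In SCZ+c-MSST against SCZ the members leaned downward. Only 13 of 79 (16.5%) were above 0, where 47.4% of tested genes were, and the median was -0.059 against -0.009. The tested genes under 1000 bases had a median of -0.054, close to that of the members, and rho with length across all genes was 0.13. By complex the median was -0.078 in complex I, -0.036 in complex II, -0.037 in complex III, -0.039 in complex IV and -0.082 in complex V, whose 5 membrane subunits were all below 0. By edgeR 0 members and 0% of tested genes were called. An unadjusted p under 0.05 was reached by 4 members downward (5.06%, against 3.7%) and 0 upward (against 3.86%), a share near the background. The 4 became 8 without Control replicate 1, 8 without SCZ+c-MSST replicate 4 and 2 without SCZ+c-MSST replicate 5. Groups did not overlap for 7 members downward (8.86%, against 3.78%) and 0 upward (against 4.5%): Atp5l, Cox7c, Ndufa1, Ndufa7, Ndufa9, Ndufb2 and Uqcrb. The SCZ libraries are the same as in SCZ against Control, so a high SCZ group raises that comparison and lowers this one. Beside these, cytosolic ribosomal protein genes were below 0 in 74 of 79, endothelial markers in 8 of 8 and myelin markers in 10 of 10. As a mean of centred log2 CPM, septal and medial forebrain markers ran from 0.072 to 1.28 in SCZ and from -0.212 to -0.04 in SCZ+c-MSST. Choroid plexus and ependymal markers ran from 0.18 to 0.663 in SCZ and from -1.541 to -0.399 in SCZ+c-MSST. The part of these tissue markers in the result was not tested. Haemoglobin genes were above 0 in 5 of 5 (median 1.85), and all 8 excitatory cortical markers were above 0 (median 0.21). With the ribosomal score as a covariate the members' median was -0.031 and 28 were above 0.

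Ndufa1 held 22.2, 26.3, 25.5 and 24.6 CPM in SCZ+c-MSST, below each of the 4 SCZ values given above. The log2 fold change was -0.28 ± 0.084 (edgeR adjusted p = 0.421). Atp5l, a membrane subunit of ATP synthase, held 70.9, 78.5, 77.7 and 71.5 CPM in SCZ and 62.9, 59.3, 65 and 69.1 in SCZ+c-MSST. Uqcrb, a small complex III subunit, held 49, 50.9, 49.5 and 50.9 against 45.6, 46.5, 48.7 and 47.6. In both genes every SCZ+c-MSST library was lower. The other 2 with the smallest p were Ndufa4l2, at -0.59 ± 0.24 (edgeR adjusted p = 0.583), and Ndufb2, a membrane arm accessory subunit, at -0.28 ± 0.11 (edgeR adjusted p = 0.591).

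Averaged over c-MSST, MK-801 gave 72 of 79 members above 0 (91.1%, against 49.6% of tested genes), with a median of 0.088, against 0.045 for tested genes under 1000 bases. By edgeR 0 members and 0% of tested genes were called. An unadjusted p under 0.05 was reached by 28 members upward (35.4%, against 8.1%) and 0 downward (against 8.52%). This average uses the same libraries as the comparisons above and is not separate evidence. Ndufa1 stood at 0.25 ± 0.055, Sdhc at 0.15 ± 0.038 and Cox7a2l at 0.11 ± 0.029, with edgeR adjusted p-values of 0.0825, 0.0843 and 0.0938. DESeq2 called these same 3 genes, at adjusted p-values of 0.0052, 0.0156 and 0.0212. Calls among all tested genes ran from 0 to 587 over the alternatives. The share for DESeq2 alone is not given here, so these calls are not set against a background. The count of 28 was 7 with the striatal score and 10 with the ribosomal score as a covariate. The share of all tested genes under these 2 fits is not given here. Averaged over MK-801, c-MSST gave 13 members above 0 (16.5%, against 46.3%), with a median of -0.043, the same as for tested genes under 1000 bases. By edgeR 0 members and 0.0122% of tested genes were called, the latter 2 genes, which became 223 without Control replicate 7 and 0 without Control+c-MSST replicate 4. There were 9 members at an unadjusted p under 0.05 downward (11.4%, against 7.95%) and 0 upward (against 7.89%). That count ran from 3 without SCZ replicate 2 and 4 without SCZ+c-MSST replicate 2 to 16 without Control replicate 1 and 17 without Control+c-MSST replicate 1. Ndufa1 stood at -0.19 ± 0.056 (edgeR adjusted p = 0.121), Atp5j2, the f subunit of ATP synthase, at -0.16 ± 0.063 (0.213) and Ndufa3, an accessory subunit, at -0.18 ± 0.071 (0.216).

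The interaction asks whether the MK-801 difference itself differed with c-MSST. By edgeR 0 members and 0% of tested genes were called, so no member was shown to respond differently. The members' median was -0.028, against -0.027 for tested genes under 1000 bases, with 31 of 79 above 0 (39.2%, against 50.3%). An unadjusted p under 0.05 was reached by 1 member upward (against 3.9%) and 3 downward (3.8%, against 3.39%), shares near the background. These were Ndufa12 at 0.22 ± 0.098 (edgeR adjusted p = 0.651), and Ndufa9, Ndufa7 and Ndufs3 at -0.20 ± 0.081, -0.23 ± 0.11 and -0.20 ± 0.095 (0.641, 0.671 and 0.681). The total of 4 lay between 2 and 8 when single libraries were left out.

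Genes around the complexes showed a mixed picture in SCZ against Control, and none passed edgeR's test. Complex IV assembly factors were above 0 in 16 of 22 (median 0.12), complex I assembly factors in 12 of 18 (0.1), complex II assembly factors in 3 of 4, complex III assembly factors in 3 of 6 (-0.011) and ATP synthase assembly factors in 4 of 4 (0.12). Of respiratory chain and ATP synthase genes outside the name pattern, Cyc1 stood at 0.114, Ndufab1 at 0.089, Higd1a at 0.073 and Cycs at 0.045. Higd2a and Atpif1 stood at -0.033 and -0.139. Citric acid cycle enzymes were above 0 in 10 of 17 (0.01), and transcription factors and coactivators of mitochondrial biogenesis in 6 of 14 (-0.013). Among the latter, Esrra, a nuclear receptor that drives mitochondrial genes, stood at 0.19 ± 0.076 and Ppargc1a, the coactivator PGC-1alpha, at -0.11 ± 0.063. The 2 smallest p-values among assembly factors of complexes IV and II belonged to Coa6, a copper handling factor, at 0.40 ± 0.12 and Sdhaf4, a succinate dehydrogenase assembly factor, at 0.54 ± 0.17, each with an edgeR adjusted p of 0.194. Averaged over c-MSST, Coa6 stood at 0.44 ± 0.088 (edgeR adjusted p = 0.0651) and Sdhaf4 at -0.035 ± 0.12. In SCZ+c-MSST against Control+c-MSST, Sdhaf4 had the opposite direction, at -0.61 ± 0.18 (edgeR adjusted p = 0.297). Its interaction was -1.14 ± 0.24 (edgeR adjusted p = 0.347).

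In SCZ replicate 5, 2 core subunit genes of complex I were low. Ndufs8, an iron-sulfur subunit at 19:3908863-3912774, held 44.7, 47.2, 44.7 and 21.1 CPM in SCZ replicates 1, 2, 3 and 5, and 37.8 to 48.1 in the other groups. Ndufv1, the NADH-binding flavoprotein at 19:4007384-4012806, held 70.8 CPM in that library against a median of 99 over the other 18. Both were picked after their values were seen. In SCZ against Control, Ndufs8 stood at -0.12 ± 0.15 with this library and 0.09 without it, and Ndufv1 at 0.029 and 0.15. In SCZ+c-MSST against SCZ, Ndufs8 stood at 0.14 with it and -0.068 without it. The direction given for Ndufs8 thus rests on 1 library.

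**Figure D5:**
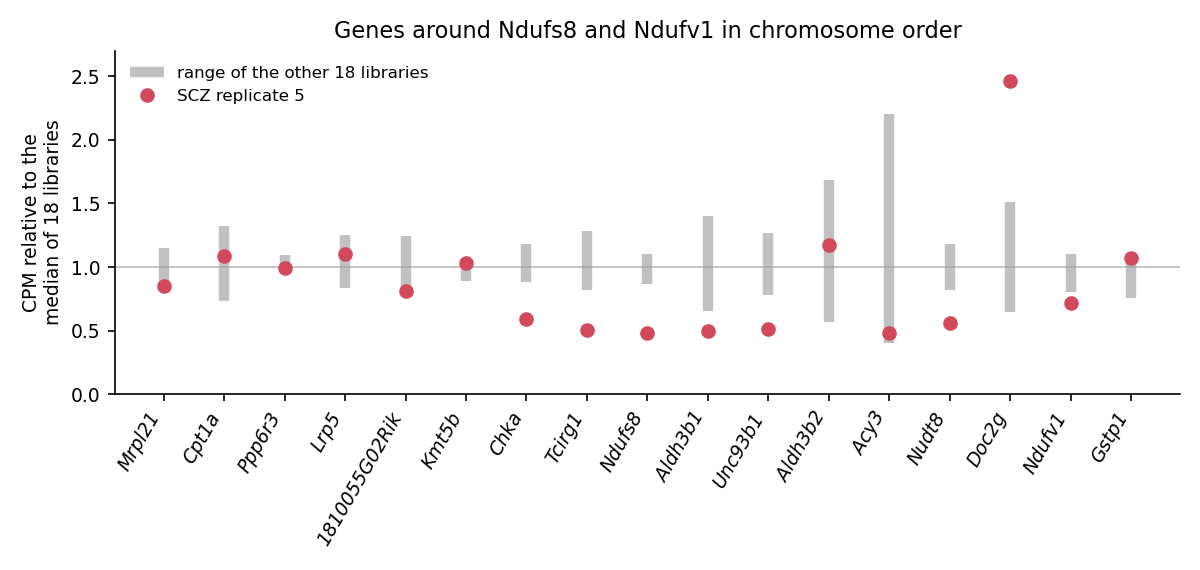
CPM in SCZ replicate 5 divided by the median of the other 18 libraries (red points, linear y axis) for genes around Ndufs8 and Ndufv1 in chromosome order; grey bars are the range of those 18. Ndufs8 lies at 0.485 and Ndufv1 at 0.715, both below the grey bars.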

How the data were processed

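RNA from 19 libraries in 4 groups was read from 2 deposited tables. The first holds estimated counts per gene and the second FPKM, both made by the authors. The submitters' processing notes name fastp 0.19.5, STAR 2.7.7a, Picard 2.18.29, StringTie 1.3.5 and mm10. No source used here states the counting strand or the role of each tool. The labels' protocols name TRIzol extraction and a stranded total RNA kit.

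The deposited counts entered edgeR 4.0.16 (R 4.3.3; filterByExpr, TMM, robust quasi-likelihood fit with 1 coefficient for each group over all 19 libraries, 16417 genes tested), with Benjamini-Hochberg adjustment over all tested genes at 0.05. There were 7 comparisons, which share libraries. Log2 CPM used a prior count of 2. DESeq2 1.42.0 and limma 3.58.1 on log2(FPKM + 1 or 0.1) served as alternatives, beside the replicate block, other filters and leaving out each library. For the alternatives and covariates, counts of members at an unadjusted p under 0.05 come without the share of all tested genes. A change in such a count can therefore be general rather than particular to the members. The labels do not say that libraries came from separate animals, so p-values measure only the spread between these samples. Library totals were 50140626 to 82416746 counts. Tested on simulated data for SCZ against Control, the fit recovered 23 of 100 genes changed 1.25-fold and 74 of 100 changed 2-fold, among 16257 genes, so small differences can be missed. The changed genes were drawn at random from all these genes, and smaller changes were not simulated. Members varied less over libraries, with a median coefficient of variation of 8.48% against 13.2% for all tested genes. The rates therefore do not describe the members.

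The members and gene lists were chosen with earlier results of these data known. Genes are named by rule: in each comparison the called members or, with none called, the 3 with the smallest p; in each complex the highest and lowest; isoform families; the core subunits of complexes I and II; and the leading genes of each pathway list. Levels between genes were to come from the deposited FPKM. Its implied gene lengths did not match the genes (values in the closing section), so CPM per kb was used, with gene models of GENCODE M21. Promoters are from RefSeq (GRCm38.p6). The values of 1 member are not reported here; it stays in the counts and medians, but not in the count of libraries far from their group.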

Additional observations from a re-analysis of the deposited data

Results flagged for a closer look

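Single libraries stood far from the rest of their group, by the ratio of a gap to the group's range (Dixon's 95% limits), in 33 of 340 sets of values, each a member or complex score in 1 group. Chance gives about 1 in 20, and members are not independent of one another. No explanation was tested.

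Control replicate 1 was low for 12 members, on the log2 CPM scale: Atp5g1 5.07, Atp5g2 4.33, Atp5l 5.35, Cox5a 4.63, Cox7b 6.11, Cox7c 6.35, Ndufa7 4.47, Ndufa9 5.64, Ndufb11 4.45, Ndufb9 5.74, Ndufv1 6.31 and Uqcr10 5.06. SCZ replicate 5 was low for 6 members, with log2 CPM of 9.52 for Atp5b, 4.46 for Atp5mpl, 8.28 for Cox4i1, 6.99 for Ndufs1, 4.40 for Ndufs8 and 6.15 for Ndufv1.

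Control+c-MSST replicate 6 was low for the scores of complex III and complex IV, each at -0.18, and for Ndufa2 (log2 CPM 3.77) and Ndufv3 (log2 CPM 4.70). In SCZ+c-MSST, replicate 2 was low for the complex III score (-0.021), for Cox6c (log2 CPM 7.09) and for Ndufa13 (log2 CPM 5.72), and replicate 3 was low for Cox7c (log2 CPM 6.84). Replicate 4 of that group was low for Cox7a2 (log2 CPM 5.93) and high for Ndufa4l2 (0.62), Ndufb4c (3.43) and the score of the 2 members outside the complexes (0.046). SCZ replicate 3 was high for the complex II score (0.10), SCZ replicate 1 low for Ndufb7 (log2 CPM 4.22), and Control+c-MSST replicate 7 high for Cox8a (log2 CPM 7.67).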

How the results depend on the processing

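Members called by edgeR were 0 in all 7 comparisons. DESeq2 called 1 member in SCZ against Control, 3 for MK-801 averaged over c-MSST and 1 for c-MSST averaged over MK-801 (Ndufa1, adjusted p = 0.0467). The share of all tested genes that DESeq2 called is not given here, so these counts have no background beside them. Leaving out 1 library gave 0 to 1 for MK-801 averaged over c-MSST. Without Control replicate 4 it was 1, where 286 of all tested genes were called as well. The members' median log2 fold change with FPKM plus 1 and plus 0.1 was -0.029 and -0.03 in SCZ+c-MSST against Control+c-MSST, 0.065 and 0.073 in Control+c-MSST against Control, and -0.16 and -0.17 for the interaction, and for SCZ+c-MSST against SCZ -0.11 with plus 0.1. The median of all genes on that scale stood at -0.068 and -0.092, 0.049 and 0.07, -0.098 and -0.13, and -0.061 in the same order. With the replicate block the members' median moved to 0.008 in SCZ+c-MSST against Control+c-MSST. The other 206 alternatives for the members' medians moved by less than the SD of the all-member score between replicates. That limit is wide beside the medians: the SD was 0.081 in Control and 0.057 in SCZ. In SCZ against Control, the fall from 0.109 to 0.045 with the ribosomal score as a covariate stayed within it. In SCZ against Control, medians without 1 library ran from 0.085 (without Control replicate 1) to 0.12 (without SCZ replicate 5).

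Without 1 library, Ndufs8 ran from -0.22 to 0.09 in SCZ against Control and from -0.068 to 0.24 in SCZ+c-MSST against SCZ, and Ndufv1 from -0.03 to 0.15 and from -0.13 to 0.05. With the ribosomal score as a covariate Ndufv1 was -0.042 and 0.04. The cause was not tested.

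Over 19 same-numbered pairs of libraries the correlation of deviations ran from -0.096 to 0.14, with 1 over 0.1 and a median of -0.011. Over 115 other pairs the median was 0.00045. The pairs as a whole thus showed no likeness by number, and whether single pairs share a factor was not tested. With the replicate block the members' median was 0.11, 0.008, 0.031 and -0.062 in the 4 comparisons of groups, and members with an unadjusted p under 0.05 for MK-801 averaged over c-MSST were 8 in place of 28.

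With the shortest principal transcript the median CPM per kb was 171 in complex IV and 72.9 in complex V. This alternative, the 2 covariates and leaving out Control replicates 2 and 3 with Control+c-MSST replicate 6 were chosen after seeing the data. Counts limit Ndufa4l2 and Cox6a2 most among the named members, at mean CPM of 1.57 and 3.33. Over all alternatives, calls among all tested genes ran from 0 to 243 in SCZ against Control (0 by edgeR as reported), 0 to 567 in Control+c-MSST against Control (54), 0 to 587 for MK-801 averaged over c-MSST (0), 0 to 456 for c-MSST averaged over MK-801 (2), 0 to 73 in SCZ+c-MSST against Control+c-MSST (0), 0 to 62 in SCZ+c-MSST against SCZ (0) and 0 to 40 for the interaction (0).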

Other observations

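The low values of Ndufs8 and Ndufv1 in SCZ replicate 5 extended to neighbouring genes. From Chka to Ndufv1 (19:3851773-4012806, GRCm38), 10 genes averaged at least 1 CPM, and 7 of them were lower in this library than in all 18 others. Their ratios to the median of the others were 0.594 for Chka, 0.507 for Tcirg1, 0.485 for Ndufs8, 0.495 for Aldh3b1, 0.509 for Unc93b1, 0.558 for Nudt8 and 0.715 for Ndufv1. Within the same stretch Acy3 stood at 0.48 but inside the range of the others, Aldh3b2 at 1.17 and Doc2g was high at 2.46. Of the genes flanking it, Kmt5b stood at 1.03 and Gstp1 at 1.07. Further out, Mrpl21 (0.847) and 1810055G02Rik (0.812) were also below all 18 other libraries, by less, while Cpt1a, Ppp6r3 and Lrp5 stood at 1.09, 0.992 and 1.1. Over 10123 genes at 10 CPM or more, 9.57% had their lowest value in this library. The region was picked after these values were seen.

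The deposited FPKM imply gene lengths (CPM divided by FPKM) that did not follow the genes' own exon lengths. Across genes, Spearman's rho was 0.19 with the gene's own length (13834 genes) and 0.62 with that of the gene listed 2 places further down the table (13775 genes). For 1 and 3 places down it was 0.31 and 0.22. For Ndufa1 the implied length was 1786 bases and its exons span 419. For Atp5h it was 16848 against 1465. The genes listed 2 places down from these have 1092 and 3306 exon bases, which do not equal the implied lengths either. FPKM levels of different genes therefore cannot be set side by side. Comparisons of 1 gene between groups can also differ between the scales: Atp5b averaged 720 CPM in Control and 711 in Control+c-MSST, but 168 and 174 FPKM.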
